A study of Mus musculus with 16 samples.

Results

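The genes described here encode the proteins of the mitochondrial ribosome. They were taken as every symbol in the deposited gene table that begins with Mrpl or Mrps followed by a number and at most 1 further letter, leaving out symbols marked as pseudogenes (-ps). Of 32166 genes in the table, 77 met this rule: 48 named for the large subunit (Mrpl) and 29 named for the small subunit (Mrps). Throughout, the subunit of a member is read from its symbol, which need not match the place of its protein. A further 5 symbols were left out as pseudogenes. All 77 passed the filter of a CPM (the read count of a gene scaled to library size) of 1 or more in 2 libraries or more, as did 15202 genes in all.

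RNA-seq was made from mouse photoreceptor cells sorted from retinal organoids, which are 3-dimensional retina-like tissues grown from pluripotent stem cells. All cells carried the Nrlp-GFP genotype, in which the promoter of Nrl, the transcription factor of rod fate, drives GFP, and GFP+ cells were collected by flow sorting. The starting cells were embryonic stem cells (ESC) from blastocysts of the reporter mice, or induced pluripotent stem cells (iPSC) made from their embryonic fibroblasts with doxycycline-inducible lentiviral Oct3/4, Sox2, Klf4 and c-Myc. All organoids were started under hypoxia and later received taurine and retinoic acid. The 9 ESC libraries comprised 3 at day 18, 3 at day 21 and 1 each at days 25, 28 and 35. The 7 iPSC libraries comprised 2 at day 18, 1 at day 21, 2 at day 25 and 1 each at days 28 and 35. The labels do not say how many clones, cultures or organoids stand behind the libraries, so the p-values below speak only to how far these libraries differ among themselves, and that spread may be technical.

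Mitochondria keep a small genome that encodes a few membrane subunits of the respiratory chain and ATP synthase, and the mitochondrial ribosome translates them. Its RNAs are transcribed inside the organelle, whereas all of its proteins are encoded in the nucleus, made in the cytosol and imported. Photoreceptors are among the cells with the highest energy use, and their inner segments are packed with mitochondria.

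The sorted cells carried rod genes at every day, but unequally. The summed level of 10 rod markers ran from 40.31 to 2434.76 CPM at day 18 and from 4856.58 to 12842.07 CPM at day 35. The day 18 libraries ESC 1 and iPSC 1, held little Nrl (17.74 and 15.99 CPM) and much of the proliferation marker Mki67 (406.1 and 462.46 CPM). The 6 cone markers summed to 26.66 to 192.58 CPM at day 18, 137.38 to 543.42 CPM at day 21 and 247.34 to 264.81 CPM at day 25. Their sum was 57.72 to 139.49 CPM at day 28 and 15.03 to 15.47 CPM at day 35, with Opn1mw at 0 in all 16 libraries. The summed level of 3 Y-linked genes was 2.78 CPM in the ESC day 18 library 1 against 76.78 to 221.46 CPM in the other 8 ESC libraries. In the iPSC day 18 library 2 it was 126.51 CPM against 1.88 to 34.35 CPM in the other 6 iPSC libraries. Of those 6 the iPSC day 25 library 1 held 34.35 CPM and the next highest 4.44 CPM. That day 25 library was kept in the fits below that leave out 2 libraries for their Y-linked genes. The day 18 libraries ESC 1 and iPSC 2 thus went against the other libraries of their source. Whether their source labels are right was not tested, and several results that rest on them are given with and without them. Estimated counts in the deposited transcript table summed to between 2573023 and 14454287 per library, and CPM summed over the gene table to between 642418 and 885155. Among the 51 members whose transcripts are all in the transcript tables, every one had at least 10 estimated counts in every library.

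The members did not stand at one level. In TPM, a level scaled for transcript length as well as depth, the means over 16 libraries of those 51 members ran from 13.1 to 275, a ratio of 21.0. The median of the means was 68.2 TPM for 30 large subunit members and 65.0 TPM for 21 small subunit members. Mrps33 was highest at 275 ± 50.5 TPM (SD, n = 16), followed by Mrps21 at 183 ± 30.4 TPM, Mrpl30 at 167 ± 23.8 TPM and Mrpl20 at 114 ± 24.0 TPM. The lowest were Mrpl1 at 13.1 ± 2.92 TPM, Mrpl23 at 13.6 ± 4.07 TPM, Mrpl19 at 22.0 ± 7.77 TPM and Mrpl35 at 22.5 ± 8.03 TPM. The lowest library of Mrps21, at 145.9 TPM, lay above the highest library of Mrpl19, at 41.0 TPM. Neighbours at the low end were not separate, since Mrpl1 ranged from 8.92 to 20.7 TPM and Mrpl23 from 7.44 to 22.3 TPM. Mrpl23 is uncertain: it held 1.85 to 5.14 CPM while its pseudogene Mrpl23-ps1 held 15.7 to 32.4 CPM, and reads may have been divided between the copies.

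**Figure D1:**
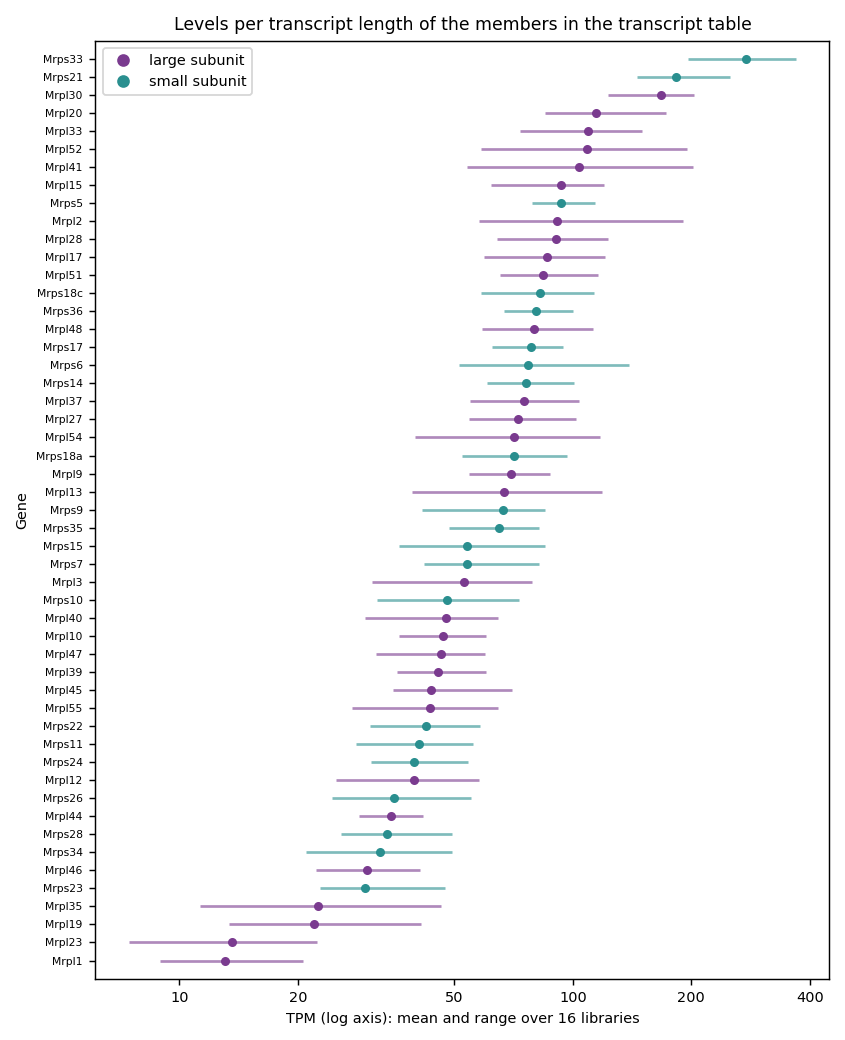
TPM of the 51 members whose transcripts are all in the deposited TPM table, on a log axis. Points are the mean and bars the range over 16 libraries, coloured by the subunit in the symbol. Means run from 13.1 TPM for Mrpl1 to 275 TPM for Mrps33, and members of both subunits are spread along the scale.

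The genes lay on 17 chromosomes, with 10 on chromosome 11, 8 on chromosome 17 and 7 on chromosome 6. In the GENCODE vM21 annotation of GRCm38, 26 of the 77 overlap another protein-coding gene, 23 of them one on the opposite strand. Mrpl46 (chr7:78775236-78783531) and Mrps11 (chr7:78783119-78792989), 1 gene of each subunit, overlap each other head to head by 413 bases. The library kit keeps strand, but the strand setting of the quantification is not given in the sources used here, so reads in such overlaps could be shared.

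Start regions were compared because many nuclear genes for mitochondrial proteins are known targets of the factors NRF1, GABPA (NRF2) and YY1. RefSeq windows on GRCm38.p6, from 250 bases before to 50 bases after the start, were found for 68 of the 77 members. Searched on both strands, the NRF1 palindrome was in 3 windows (4.41%, against 1.9% of 11147 windows of tested genes and 0.977% of all 27025 windows), those of Mrpl9, Mrpl32 and Mrpl39. The GABPA letters CCGGAAGT were in 11 windows (16.2%, against 7.45% and 4.0%). The YY1 letters AAGATGGCG were in 8 windows (11.8%, against 2.86% and 1.49%), and in 2.94% of member windows when only the bases upstream of the start were searched (against 1.04% and 0.607%). The E-box CACGTG, bound by Myc proteins among others, was in 5 windows (7.35%, against 9.6% and 7.24%). No motif letters contain those of another. A match describes the letters in the window and shows no binding.

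Stretches upstream of 5 starts are shown, cut to bases outside annotated exons, with matched letters in capitals. Mrpl9 shows the NRF1 letters, Mrpl43 and Mrps22 show the GABPA letters beside the start, Mrpl2 shows the E-box, and Mrpl41, the most variable of these 5 over the libraries, holds none of the 4 motifs.
Mrpl9, chr3:94443186-94443317, plus strand: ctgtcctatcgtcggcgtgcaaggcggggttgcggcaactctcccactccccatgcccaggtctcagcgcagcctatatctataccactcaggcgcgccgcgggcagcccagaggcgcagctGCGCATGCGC
Mrpl43, chr19:45006443-45006557, minus strand: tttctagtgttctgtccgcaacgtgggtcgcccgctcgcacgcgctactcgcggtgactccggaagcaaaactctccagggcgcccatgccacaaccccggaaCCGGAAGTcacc
Mrps22, chr9:98601680-98601829, minus strand: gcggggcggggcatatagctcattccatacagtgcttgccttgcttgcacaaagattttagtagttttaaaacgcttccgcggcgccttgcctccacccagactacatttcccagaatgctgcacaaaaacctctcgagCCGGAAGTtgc
Mrpl2, chr17:46646071-46646220, plus strand: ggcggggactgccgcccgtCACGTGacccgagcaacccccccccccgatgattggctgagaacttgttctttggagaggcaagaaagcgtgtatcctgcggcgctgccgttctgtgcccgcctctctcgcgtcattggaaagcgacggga
Mrpl41, chr2:24975099-24975248, minus strand: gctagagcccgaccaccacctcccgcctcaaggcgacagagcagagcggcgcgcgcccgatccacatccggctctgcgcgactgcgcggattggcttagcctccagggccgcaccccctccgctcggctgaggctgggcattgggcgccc
In Mrpl43 and Mrps22 the matched letters end within a few bases of the annotated start, and in Mrpl9 they close the printed stretch.

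Across the 16 libraries most members stayed within a narrow band. The SD of log2(CPM + 1) over libraries had a median of 0.28 among the 77 members, from 0.16 for Mrps18b to 0.61 for Mrpl14. The same median was 0.45 over all 15202 genes tested and 0.43 over the 9396 genes with a mean in the members' range. It was 0.57 for 85 cytosolic ribosomal protein genes and 0.35 for 78 genes of oxidative phosphorylation subunits. The highest library of a member was at the median 2.00 times its lowest in CPM, against 4.08 times for the cytosolic ribosomal proteins and 2.39 times for the oxidative phosphorylation subunits. No test of these differences was made.

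What variation there was had 1 leading axis. The first principal component of the members' centred log2(CPM + 1) values held 43.3% of their variance and the second 13.3%. Of the 77 members, 63 correlated positively with it over 16 libraries, led by Mrpl14 (r = 0.95), Mrpl28 (r = 0.94), Mrpl55 (r = 0.93) and Mrpl43 (r = 0.92). Mrpl13 (r = -0.63), Mrpl35 (r = -0.53), Mrps15 (r = -0.51), Mrpl33 (r = -0.42), Mrpl3 (r = -0.41) and Mrpl19 (r = -0.40) ran against it most. Both scores and correlations come from the same values and are a description only.

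Libraries high on this axis were the ESC day 21 library 3 (score 2.86), the iPSC day 35 (2.72), iPSC day 28 (2.27) and ESC day 28 (1.68) libraries. Lowest were the ESC day 35 library (-2.58) and the iPSC day 18 library 1 (-2.57). Mrpl14, with the largest SD on the log2 scale, held 30.8 CPM in the ESC day 21 library 3, 26.2 CPM in the iPSC day 35 library, 8.62 CPM in the ESC day 35 library and 9.36 CPM in the iPSC day 18 library 1. The 2 day 35 libraries thus stood at opposite ends of the axis.

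Members at the 2 ends of the axis differed in base composition. Transcript GC content had a median of 55.9% among the 14 members with r of at least 0.8 and of 48.9% among the 14 with r of 0 or less. The rank correlation of a member's r with its transcript GC was 0.47 over 77 members, and 0.29 over 14202 tested genes with transcript models. Library by library, the rank correlation between GC and a gene's deviation from its own mean ran over all those genes from -0.40 in the ESC day 21 library 2 to 0.43 in the ESC day 18 library 3. The part of base composition in the axis was not tested. With transcript length the rank correlation was -0.10 over the members.

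**Figure D2:**
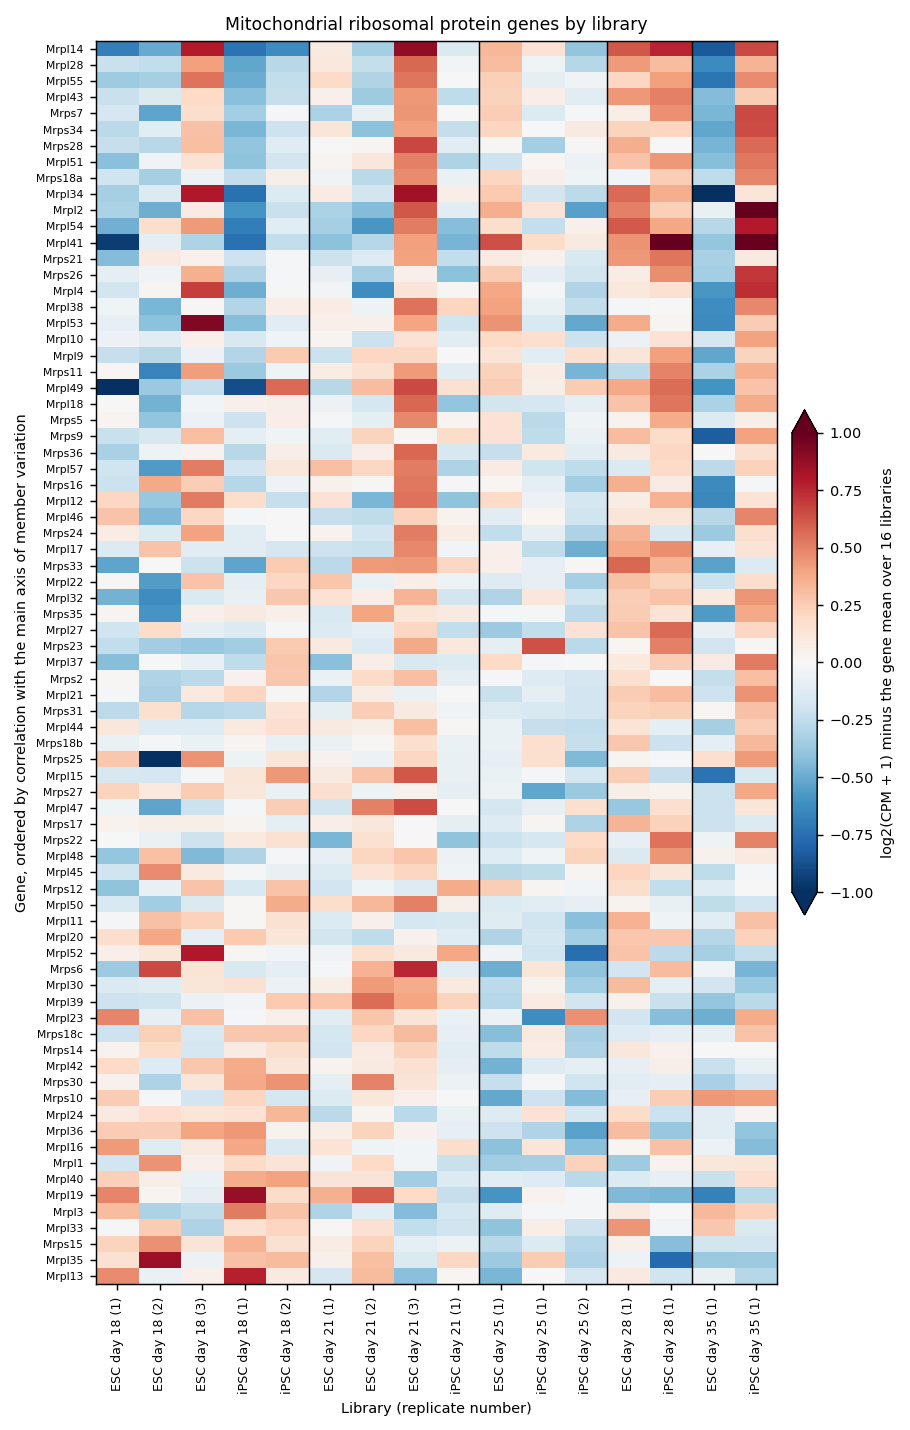
Centred log2(CPM + 1) of the 77 members (rows, ordered by correlation with the first principal component) in 16 libraries (columns, by day and source, vertical lines between days); red is above and blue below the gene's mean, and the colour scale ends at 1 in each direction. The ESC day 35 library is low and the iPSC day 35 library high over most rows, and the lowest rows, led by Mrpl13, Mrpl35 and Mrps15, run against the top.

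Each later day was compared with day 18, first day 21. None of the 77 members passed an adjusted p of 0.05 (limma with trend on log2(CPM + 1), source as covariate, Benjamini-Hochberg over 15202 genes), nor did any of the genes tested (0%). In sorted bulk cells, fewer cells of a type and less RNA per cell cannot be told apart. The median log2 fold change was 0.06 among members and 0.02 over all genes. At an unadjusted p under 0.05, 4 members stood out (18.8% of all genes did), and neither edgeR nor DESeq2, on estimated counts of the 51 members with complete transcripts, called any. Because 1 is added to each CPM before the logarithm, the changes of genes at low levels come out too small.

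The 4 with the smallest p were all of the large subunit. Mrpl39, a mitochondria-specific protein, had a log2 fold change of 0.42 (SE 0.15, limma adjusted p = 0.217), and Mrpl49 one of 0.65 (SE 0.30, limma adjusted p = 0.26). Mrpl50 stood at 0.33 and Mrpl24, which has a bacterial counterpart, at -0.31. Mrpl24 was the single member whose day 21 libraries all lay below those of day 18 (1.12% of all genes did), and none lay wholly above (0.967% of all genes). Its day 21 libraries held 44.2, 54.5 and 44.1 CPM (ESC) and 50.9 CPM (iPSC), against 56.8, 60.1 and 58.2 CPM (ESC) and 59.1 and 67.4 CPM (iPSC) at day 18.

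At day 25 no member passed the test either (0.0395% of all genes did, all of them higher). The median log2 fold change of the members was -0.08, with 32 of 77 above 0. Mrpl36 (-0.56, SE 0.20, limma adjusted p = 0.131), Mrpl42 (-0.43), Mrpl20 (-0.47) and Mrps15 (-0.47) had the smallest p. All but Mrpl42 belong to protein families shared with bacteria. The day 25 libraries of 7 members lay wholly below day 18 (7.93% of all genes) and those of 1, Mrpl41, wholly above (8.53% of all genes). Unadjusted, 8 members had a p under 0.05 (24.4% of all genes), and edgeR and DESeq2 called none.

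At day 28 the members had their highest median, still without a call. None passed the limma test (0.579% of all genes did), while 57 of 77 log2 fold changes were above 0, with a median of 0.15 against -0.03 over all genes. With CPM rescaled to equal sums in each library, 39 of 77 were above 0, with a median of 0.0049 against -0.1705 over all genes. On the main scale the median was 0.12 for the large and 0.24 for the small subunit. The 2 day 28 libraries lay wholly above day 18 in 14 members (11.9% of all genes) and wholly below in 4 (11.6% of all genes). Unadjusted, 10 members had a p under 0.05 (22% of all genes). edgeR called none and DESeq2 called 1, Mrpl41 (6.87% of all genes in that test).

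Mrpl41 had the largest fold change of any member in the day comparisons, 1.20 on the log2 scale at day 28 (SE 0.38, 95% CI 0.37 to 2.02, limma adjusted p = 0.128). Mrps33, also the highest in TPM of the 51 members with complete transcripts, stood at 0.66 (SE 0.25, limma adjusted p = 0.163), with 90.3 and 76.7 CPM at day 28 and 41.4 to 72.2 CPM at day 18. Mrpl19 (-0.76) and Mrpl35 (-0.73) had the smallest p among the members lower at day 28.

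At day 35 members lay on both sides of their day 18 levels. No member passed the test (7.53% of all genes did), and the median log2 fold change was 0.01, against 0.05 over all genes, with 40 of 77 above 0. Mrpl19 (-0.78, SE 0.29, limma adjusted p = 0.115), Mrpl2 (0.85, SE 0.36, limma adjusted p = 0.16), Mrpl35 (-0.68) and Mrpl36 (-0.50) had the smallest p. Unadjusted, 5 members had a p under 0.05 (25.3% of all genes), and edgeR and DESeq2 called none. Both day 35 libraries lay above all of day 18 for 1 member, Mrps10 (10.9% of all genes), and below for 10 (10.1% of all genes).

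The confidence intervals show what size of change the libraries could resolve for each gene. The 95% confidence interval lay within 1 log2 unit of 0 for 74 of 77 members at day 21, 70 at day 25, 55 at day 28 and 63 at day 35. A fold change beyond 1 log2 unit was estimated for 2 members, both at day 28: Mrpl41 and Mrpl14 (1.06). When days 28 and 35 together were set against days 21 and 25, again no member passed (1.47% of all genes did), 5 had an unadjusted p under 0.05 (16.4% of all genes) and edgeR and DESeq2 called none. Mrps10 (0.44, SE 0.15, limma adjusted p = 0.166), Mrpl39 (-0.33), Mrpl19 (-0.49) and Mrpl27 (0.36), a protein near the peptidyl transferase centre, had the smallest p there.

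A slope per day over all 16 libraries uses the 5 days at once. Mrpl19, a large subunit protein with a bacterial counterpart, fell by 0.055 log2 units per day (SE 0.016, 95% CI -0.09 to -0.02, limma adjusted p = 0.0317). It was the single member called (12.1% of all genes were called, 5.29% lower and 6.81% higher). Its libraries at day 18 held 30.3, 21.8 and 20.0 CPM (ESC) and 39.9 and 24.4 CPM (iPSC), and those at day 21 held 27.6, 33.0 and 24.7 CPM (ESC) and 18.0 CPM (iPSC). At day 25 they held 13.9 CPM (ESC) and 22.0 and 21.1 CPM (iPSC), at day 28 15.5 and 15.3 CPM, and at day 35 13.0 and 17.6 CPM (ESC and iPSC in that order). Both day 28 and both day 35 libraries lay below all 5 of day 18.

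The call on Mrpl19 was close to the threshold. Its slope was negative in each of the alternative fits run, from -0.04 to -0.07, but the adjusted p was 0.0705 in edgeR on estimated counts 0.139 without the 2 low-Nrl day 18 libraries and 0.077 without the 2 libraries whose Y-linked genes went against their source (both limma). It was also lost when any of 6 single libraries (ESC day 18 library 1, iPSC day 18 library 1, and the day 28 and day 35 libraries of both sources) was left out, with limma adjusted p from 0.0513 to 0.0851. Within ESC libraries the slope was -0.06 (limma adjusted p = 0.214) and within iPSC libraries -0.05 (limma adjusted p = 0.214). Mrpl19 (chr6:81957851-81965958) overlaps Gcfc2 on the opposite strand by 2065 bases. Gcfc2 had a slope of -0.02 (SE 0.01, limma adjusted p = 0.485), with 18.7 to 41.5 CPM over the libraries.

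Next by p were Mrpl35, with a negative slope (-0.05, SE 0.02, limma adjusted p = 0.0598), and Mrpl2 and Mrpl41 with positive slopes (0.05 and 0.06, both limma adjusted p = 0.0753). Mrpl2 is a core protein of the peptidyl transferase region, and Mrpl41 is specific to mitochondrial ribosomes. Mrpl35 held 15.7 to 30.6 CPM at day 18, 14.8 to 20.4 CPM at day 21, 12.6 to 19.8 CPM at day 25, 15.9 and 9.17 CPM at day 28 and 12.5 and 12.5 CPM at day 35. Both day 35 libraries of Mrpl35 lay below all of day 18, and at day 28 the ESC library overlapped.

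Mrpl2 held 20.4 to 33.2 CPM at day 18, 23.0 to 48.7 CPM at day 21, 21.2 to 40.5 CPM at day 25, and 44.8 (ESC) and 37.0 CPM (iPSC) at day 28. Its day 35 libraries differed, with 29.7 CPM in ESC and 70.9 CPM in iPSC. Mrpl41 held 13.2 to 24.8 CPM at day 18, 18.8 to 35.4 CPM at day 21, 28.2 to 41.7 CPM at day 25, and 36.3 (ESC) and 54.9 CPM (iPSC) at day 28. At day 35 it stood at 19.9 CPM in ESC, inside the day 18 range, and at 56.9 CPM in iPSC, above it. Over all members the median slope was 0.0022 log2 units per day (0.0013 over all genes), 9 had an unadjusted p under 0.05 (28.8% of all genes), edgeR called none of the 51 members with complete transcripts and DESeq2 called 3 (Mrpl19, Mrpl41 and Mrps5, with 21.6% of all genes called in that test).

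**Figure D3:**
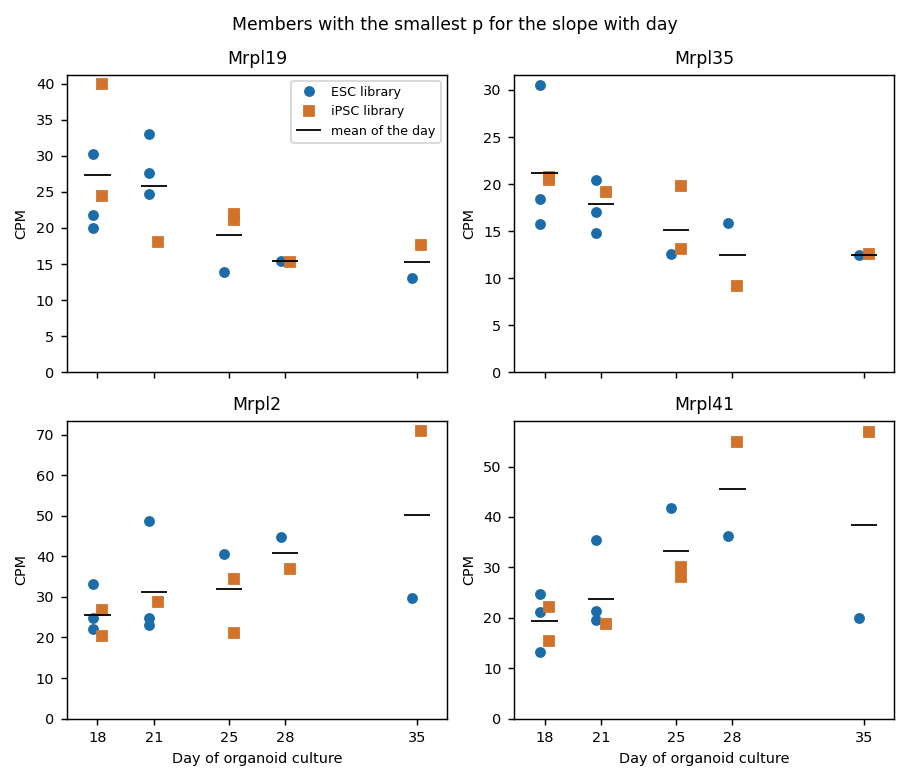
CPM of Mrpl19, Mrpl35, Mrpl2 and Mrpl41 in each library by day of culture (blue circles ESC, orange squares iPSC, black bars the mean of the day). Mrpl19 reaches 39.9 CPM at day 18 and at most 17.6 CPM at days 28 and 35, while Mrpl2 and Mrpl41 part at day 35 between the ESC library (29.7 and 19.9 CPM) and the iPSC library (70.9 and 56.9 CPM).

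The 2 day 35 libraries, 1 of each source, differed for most members. The 77 members summed to 1572.8 CPM in the ESC day 35 library, the lowest of all 16, and to 2247.7 CPM in the iPSC day 35 library, exceeded only by the ESC day 21 library 3 at 2348.4 CPM. These ranks depend on the CPM totals of the libraries, 720169 and 874489 at day 35 (ESC and iPSC). As a share of the total the members held 0.218% and 0.257% in that order. By share the lowest was the iPSC day 25 library 2 (0.207%) and the highest the ESC day 18 library 3 (0.293%). Within ESC libraries the median log2 fold change of day 35 against day 18 was -0.24, with 16 of 77 above 0 (median of all genes 0.08). Within iPSC libraries it was 0.25, with 54 of 77 above 0 (median of all genes -0.03). Without the 2 libraries whose Y-linked genes went against their source these medians were -0.2475 and 0.2881. Without the ESC day 35 library the median was 0.26, and Mrpl2 (1.61, limma adjusted p = 0.0432) and Mrpl41 (1.62, limma adjusted p = 0.0474) passed the test there (2.75% of all genes were called higher in that fit). The slope then called 8 members, all higher (11.2% of all genes were called higher): Mrpl2, Mrpl14, Mrpl28, Mrpl41, Mrpl43, Mrpl51, Mrpl54 and Mrps34.

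Mrpl34 had the lowest log2 fold change within ESC libraries (-1.23, SE 0.55, limma adjusted p = 0.349): the ESC day 35 library held 5.72 CPM, and the day 18 libraries 10.6, 12.3 and 24.4 CPM. Within iPSC libraries Mrpl34 stood at 0.56. Mrpl14 was at -0.71 within ESC and 1.34 within iPSC libraries, and Mrpl19 at -0.81 and -0.80. None of these within-source values passed the test.

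Other cell types moved with this split. Müller glia markers (6 genes) summed to 1133.73 CPM in the ESC day 35 library and 124.56 CPM in the iPSC day 35 library, and 6 bipolar cell markers to 346.81 and 86.39 CPM. The 10 rod markers summed to 4856.58 and 12842.07 CPM in the same order, and of these markers only the bipolar gene Vsx1 was at 0, in the iPSC library. In that order, markers of retinal progenitors summed to 286.22 and 21.3 CPM, and of proliferating cells to 175.71 and 93.56 CPM. Ganglion cell markers summed to 61.79 and 6.64 CPM, and pigment epithelium markers to 52.79 and 5.05 CPM. Amacrine (200.43 and 162.7 CPM), horizontal (29.5 and 25.54 CPM) and cone markers (15.47 and 15.03 CPM) lay closer together. The part of these cell types in the difference between the members was not tested.

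**Figure D4:**
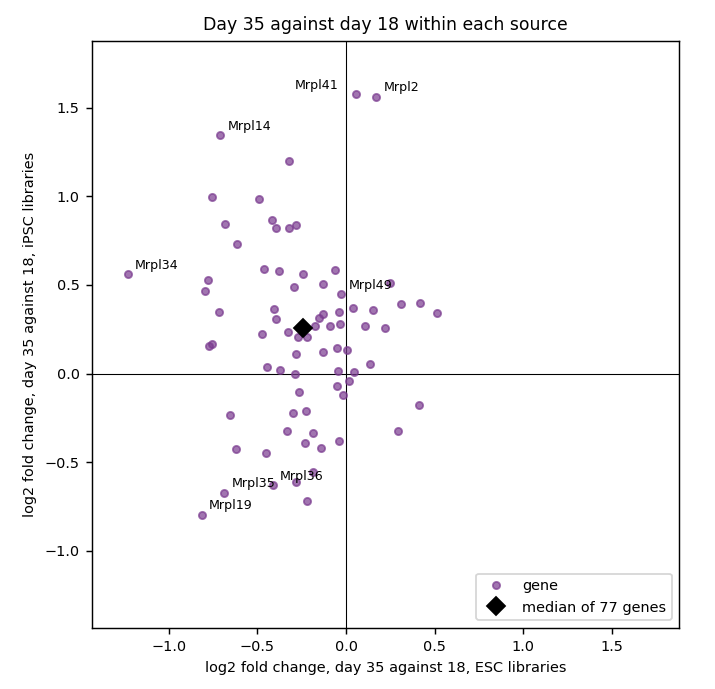
Log2 fold change of day 35 against day 18 for the 77 members within ESC libraries (horizontal) and within iPSC libraries (vertical), 1 point a gene, with the median as a diamond at -0.24 and 0.25. Mrpl41 and Mrpl2 lie near 0 in ESC and at 1.58 and 1.56 in iPSC, while Mrpl19 is at -0.81 and -0.80.

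The source of the stem cells by itself moved no member past the test. With day as a factor, iPSC against ESC called 0 of 77 members (0% of all genes), none had an unadjusted p under 0.05 (5.53% of all genes), edgeR and DESeq2 called none, and the median log2 difference was 0.04 (-0.0433 with CPM rescaled to equal sums). All 77 confidence intervals lay within 1 log2 unit of 0. The smallest p belonged to Mrpl36 (-0.23, SE 0.14, limma adjusted p = 0.753), Mrpl21 (0.20), Mrps23 (0.24) and Mrps22 (0.21). Without the 2 day 18 libraries that stood apart in Y-linked genes the median was 0.01 and no member was called.

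The difference between the sources in slope was tested directly. No member passed (0% of all genes), 6 had an unadjusted p under 0.05 (8.11% of all genes), and edgeR and DESeq2 called none. The slope was larger in iPSC libraries for 62 of 77 members, with a median difference of 0.0174 log2 units per day, against 6824 of all 15202 genes and a median of -0.0055. Mrps26 (0.07, SE 0.03, limma adjusted p = 0.508), Mrpl51 (0.07), Mrps34 (0.08) and Mrpl4 (0.08), which lines the exit tunnel, had the smallest p. Without the ESC day 35 library 40 of 77 differences were above 0 and the median was 0.0008. Without the 2 libraries whose Y-linked genes went against their source 64 were above 0 and the median was 0.0283, again with none called.

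Members with well-studied roles showed no change called by limma in any comparison. DESeq2 called a lower slope for Mrps5 (-0.019 log2 units per day, DESeq2 adjusted p = 0.0251). On the CPM scale Mrps5 showed no such fall, with means of 43.2, 50.5, 45.0, 54.0 and 45.4 CPM at days 18, 21, 25, 28 and 35. Mrpl12, which also binds the mitochondrial RNA polymerase, held 15.6 to 30.0 CPM at day 18 and 12.8 (ESC) and 22.7 CPM (iPSC) at day 35 (log2 fold change -0.31, SE 0.33, limma adjusted p = 0.60). Mrps12, of the decoding centre, stood at -0.05 and Mrps5 at 0.07 at day 35. Mrpl11, of the region that contacts translation factors, stood at -0.03. Mrpl44, which has an RNase III-like fold, was at -0.07, and Mrpl45, which faces the inner membrane, at -0.19.

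The 3 related proteins Mrps18a, Mrps18b and Mrps18c, which occupy different places in the ribosome, stood at 0.26, 0.16 and -0.0013 at day 35. Mrps18b had the smallest SD of log2(CPM + 1) of all members and held 14.9 to 22.4 CPM. Mrps16 (-0.32), Mrps22 (0.21) and Mrpl3 (0.15), genes in which human mutations cause combined respiratory chain deficiency, had 95% confidence intervals that included 0. Mrps36, later assigned to the 2-oxoglutarate dehydrogenase complex, stood at 0.19 and held 13.2 to 25.4 CPM over the libraries.

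Proteins of 2 other systems set the scale. Of 85 cytosolic ribosomal protein genes, 41 fell at day 35 and none rose (limma, 2.99% of all genes fell), with a median log2 fold change of -1.04. Of 78 oxidative phosphorylation subunit genes 3 rose and 1 fell (4.54% of all genes rose), with a median of 0.26, while the mitochondrial ribosomal proteins had a median of 0.01. At day 28 the medians were -0.11, 0.56 and 0.15 in that order, and limma called none in any of the 3 lists (0.579% of all genes). Before adjustment 8, 32 and 10 of their genes had a p under 0.05 (22% of all genes). edgeR called none there either, and DESeq2 called 2, 3 and 1. The share of all genes called by DESeq2 at day 28 is given above. For the slope 44 cytosolic ribosomal protein genes fell, 4 oxidative phosphorylation genes rose and 1 fell (6.81% of all genes rose and 5.29% fell). These comparisons use the same libraries, and the differences between the lists were not tested.

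**Figure D5:**
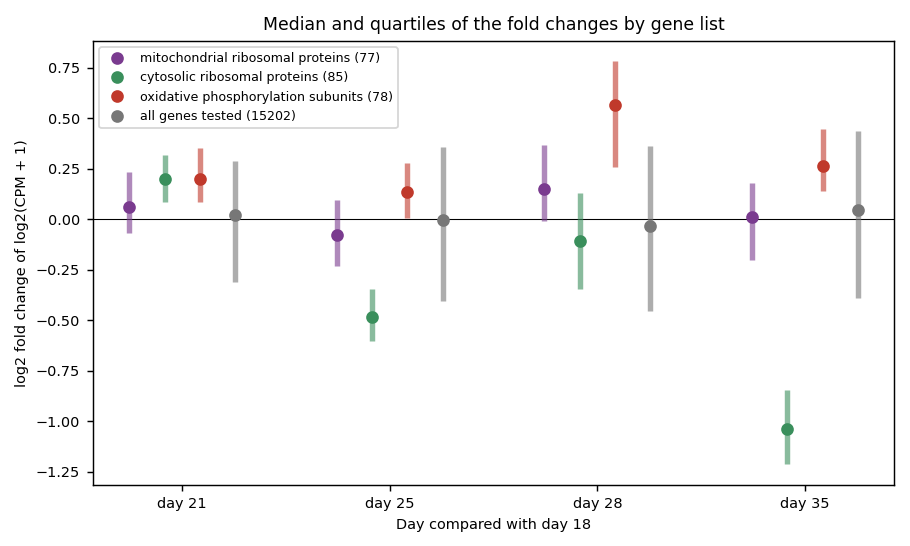
Median (points) and quartiles (bars) of the log2 fold changes against day 18 for 4 gene lists at days 21, 25, 28 and 35. At day 35 the mitochondrial ribosomal proteins sit at 0.01, the cytosolic ribosomal proteins at -1.04, the oxidative phosphorylation subunits at 0.26 and all genes at 0.05.

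Of 6 mitochondrial ribosome proteins listed under other names, 0 passed at day 35 or for the slope (limma, 7.53% and 12.1% of all genes did). None had an unadjusted p under 0.05 in either (25.3% and 28.8% of all genes), and edgeR and DESeq2 called none. Ptcd3 and Dap3 were the most abundant of the 6. Ptcd3 held 46.0 to 97.0 CPM and Dap3, of the small subunit, 29.9 to 62.1 CPM over the libraries. Ict1, the release factor built into the large subunit and now named Mrpl58, had a log2 fold change of 0.14 at day 35 (SE 0.21, limma adjusted p = 0.721).

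Of 25 assembly factors 1 rose at day 35 (4.54% of all genes rose). Nsun4, an RNA methyltransferase of ribosome assembly, held 14.6 to 15.7 CPM (ESC) and 14.5 and 22.2 CPM (iPSC) at day 18, and 28.3 (ESC) and 53.1 CPM (iPSC) at day 35. Both day 35 libraries lay above all of day 18, and the log2 fold change was 1.18 (SE 0.22, limma adjusted p = 0.011, slope 0.07 with limma adjusted p = 0.00206). Without the 2 libraries whose Y-linked genes went against their source, the day 35 change was 1.29 (limma adjusted p = 0.0203). The day 35 call was lost without the 2 low-Nrl libraries (adjusted p = 0.0594) and without the iPSC day 35 library (adjusted p = 0.138, limma).

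Of 11 transcriptional regulators 1 rose and 1 fell at day 35 (4.54% of all genes rose and 2.99% fell). The coactivator gene Ppargc1b held 0.79 to 7.26 CPM at day 18, and 16.8 (ESC) and 61.3 CPM (iPSC) at day 35. It rose by 3.39 log2 units at day 35 (SE 0.73, limma adjusted p = 0.0196) and by 3.70 at day 28 (SE 0.73, limma adjusted p = 0.0425). Mycn, a Myc family gene of proliferating progenitors, held 30.0 to 81.8 CPM at day 18 and 14.2 (ESC) and 20.5 CPM (iPSC) at day 35, and fell by 1.53 log2 units (SE 0.33, limma adjusted p = 0.0198).

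These regulator calls moved with single libraries. Without the 2 low-Nrl libraries the day 35 adjusted p was 0.0966 for Ppargc1b and 0.0868 for Mycn (limma). Without the 2 libraries whose Y-linked genes went against their source it was 0.0269 for Ppargc1b and 0.0545 for Mycn (limma). Leaving out the iPSC day 35 library gave 0.181 for Ppargc1b, and leaving out the ESC day 35 library gave 0.112 for Mycn. The day 28 call on Ppargc1b was lost in 10 of the 16 fits with 1 library left out. It was also lost without the 2 libraries whose Y-linked genes went against their source (limma adjusted p = 0.0546). NRF1 and GABPA, whose letters were searched above, had genes at -0.01 (Nrf1) and -0.14 (Gabpa) at day 35, and Yy1 stood at -0.19, none past the test.

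None of 14 genes for translation and mRNA handling, 20 genes for tRNA charging (synthetases and amidotransferase subunits) or 11 genes of mitochondrial DNA transcription and replication passed limma at day 35 or for the slope (7.53% and 12.1% of all genes did). At an unadjusted p under 0.05 there were 1, 0 and 1 of them at day 35 (25.3% of all genes) and 2, 0 and 3 for the slope (28.8% of all genes). edgeR called none in either, and DESeq2 called 1, 0 and 0 at day 35 and 3, 1 and 1 for the slope. The share of all genes called by DESeq2 is given above for the slope and is not given here for day 35. Of the 3 groups, the highest levels belonged to Lrpprc (56.1 to 84.9 CPM) and Gfm2 (36.6 to 97.1 CPM), Lars2 (213.6 to 2104.3 CPM) and Iars2 (54.6 to 93.6 CPM), and Polg, the mitochondrial DNA polymerase gene (31.3 to 70.7 CPM), and Tfam, of transcription and DNA packaging (25.3 to 65.1 CPM). The level of Lars2 is uncertain. It held 494.3 and 2104.3 CPM in the iPSC day 25 libraries 1 and 2, and 221.4, 995.3 and 611.4 CPM in the ESC day 18 libraries. The cause was not tested. The 13 proteins encoded in mitochondrial DNA, which the mitochondrial ribosome makes, had no change called by limma at day 35 or for the slope. At an unadjusted p under 0.05 there were 0 and 1 of them (25.3% and 28.8% of all genes). edgeR called none, and DESeq2 called none at day 35 and 1, lower, for the slope. Their RNAs, read from polyA-selected libraries, summed to 21465 to 35320 CPM at day 18, 23684 to 44392 CPM at day 21 and 28723 to 34138 CPM at day 25. The sum was 34739 (ESC) and 33334 CPM (iPSC) at day 28, and 27205 (ESC) and 24335 CPM (iPSC) at day 35. Over all libraries mt-Co1 ranged from 7088 to 17716 CPM.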

How the data were processed

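Bulk RNA-seq of 16 libraries was grouped by source and day from the labels. Per the submitters' processing notes, reads were processed with Trimmomatic 0.36, kallisto 0.42.5 and edgeR on GRCm38.p4. The authors deposited the gene table as a score equal to the square of log2(CPM + 1) minus 1, read from its values: undone, it kept a constant ratio to the transcript table in 8488 of 8688 genes (97.7%, tolerance 0.0001 on the log2 ratio). The authors also deposited estimated counts and TPM per transcript, in tables that end at 65535 transcripts, so the count tests cover only genes with all transcripts there. The main test was limma 3.58.1 with trend on log2(CPM + 1), pseudocount 1, in R 4.3.3, with source as covariate, for the 15202 genes reaching a CPM of 1 in 2 or more libraries, and a Benjamini-Hochberg adjusted p of 0.05. edgeR 4.0.16 (quasi-likelihood, 9316 genes) and DESeq2 1.42.0 ran on rounded gene sums with at least 10 counts. As a check of the code, the day 35 comparison was also run on simulated counts with a fixed spread and no difference between sources. That check does not show how well the test performs on these libraries, and its outcome is not given here. Named members are those called in a comparison, or the 4 with the smallest p, the 4 highest and 4 lowest by TPM, members with a known role, members with an outlying library, and, of other lists, up to 4 called genes or the 2 of highest mean CPM. Mrpl14 and other genes leading the axis of variation were chosen after their values were seen. Members and gene lists were chosen with earlier results of these data known.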

Additional observations from a re-analysis of the deposited data

Results flagged for a closer look

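Dixon's criterion was applied to each member within the 5 day 18 and the 4 day 21 libraries. It flagged 1 library as outside the range of the others in 17 of 154 groups tested (11%). The share over all genes is not given here. The members share the same libraries, so the groups are not separate tests and the count is a description only. All values are CPM. The ESC day 18 library 3 was highest for Mrpl14 (28.947), Mrpl28 (49.085), Mrpl34 (24.406), Mrpl52 (20.187), Mrpl53 (22.312) and Mrpl55 (20.102). The same library had the strongest positive relation of gene level to transcript GC (rank correlation 0.43 over all genes), whose part in these values was not tested. The ESC day 21 library 3 was highest for Mrpl41 (35.422), Mrpl54 (21.905), Mrps16 (24.665), Mrps21 (26.198) and Mrps28 (15.733). That library also held the most Nrl of day 21 (1915.22), and the part of this was not tested. The ESC day 18 library 2 was highest for Mrpl17 (30.232) and lowest for Mrpl18 (16.927) and Mrps35 (13.586). The iPSC day 18 library 2 was lowest for Mrps17 (42.044) and highest for Mrps23 (28.879). The ESC day 21 library 2 was highest for Mrpl11 (30.571).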

How the results depend on the processing

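Percentages in parentheses are the share of all genes called in the same fit. At day 28, where the main count was 0, DESeq2 called 1 (Mrpl41, 6.87%) and the fit with a replicate block 3, all higher (8.29% higher). At day 35 leaving out 1 library gave 0 to 2, with 2 only without the ESC day 35 library (2.75% higher). For the slope, where the main count was 1 (12.1%), edgeR gave 0 (13.6%), DESeq2 3 (21.6%), the stricter filter 2 (15.1%), equal sums 3 (12.7%), the replicate block 4 (20.1%), leaving out both low-Nrl libraries 0 (5.26%) and ESC libraries alone 0 (0.697%). Leaving out 1 library gave 0 to 8: 8 without the ESC day 35 library (22.1%), 2 without the ESC day 21 library 3 (15.4%), and 0 without the ESC day 18 library 1, the iPSC day 18 library 1, either day 28 library or the iPSC day 35 library. Within iPSC libraries 1 member was called (8.48%), Mrpl41 and not Mrpl19. Leaving out the 2 day 18 libraries whose Y-linked genes went against their source, chosen for the day comparisons after seeing the data, gave 0 for the slope (6.91%). The cause was not tested.

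Calls kept their direction for Mrpl19, but members' medians near 0 did not. The day 21 median changed from 0.058 to -0.0818 under equal sums and -0.0141 without the ESC day 21 library 3, and that of days 28 and 35 against days 21 and 25 from 0.0614 to -0.0354 without the iPSC day 35 library. The median of iPSC against ESC changed from 0.0414 to -0.0433 under equal sums and to -0.0116 without either day 35 library. The day 35 median, 0.0093, was -0.1374 under equal sums, -0.0398 in edgeR and -0.2681 without the iPSC day 35 library, and the slope median, 0.0022, was -0.0064 under equal sums. Rescaling to equal sums shifted single genes by a median of -0.145 to -0.151 in the comparisons with day 18. Same-numbered ESC libraries of days 18 and 21 had deviations correlated at 0.314, 0.059 and 0.249, and differently numbered ones at -0.396 to 0.123. The second pair was under 0.1 and did not correlate best with its own number, so the numbers were not taken to pair the samples. With the GABPA letters shortened by 1 at each end 54.4% of member windows matched, against 29.0% of those of tested genes and 17.2% of all windows. The shorter E-box was not run. Days with 1 library of a source (ESC days 25, 28 and 35, iPSC days 21, 28 and 35) and transcript tables that end early limit precision.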
